A study of Mus musculus with 6 samples.

Results

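Solute carriers are the membrane proteins that move sugars, amino acids, ions, metals, vitamins and nucleotides across the plasma membrane and the membranes of organelles. The members described here are the genes whose array symbol starts with Slc and a digit and that were selected on their detection p-value, which had to be under 0.01 on both arrays of a tissue, in 1 tissue or more. Genes left out by the selection rule numbered 2. This gave 136 members of 276 such genes with a probe, among 13449 genes tested in all, and 140 genes did not meet the rule. For a gene with several probes the one with the highest mean signal stands for it. Of the members, 4 only carry a carrier's name, among them Slc9a3r1, a scaffold protein that anchors membrane proteins.

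The cells were CD45+, NKp46+ and NK11+ (spelled as in the labels), without CD3, sorted from spleen, from intestine (gut lamina propria, LPL) or from skin. All samples came from male RAG-2-KO mice on C57BL/6, 12 weeks old, which lack T and B cells, so every group carries that deletion. The receptor NKp46 activates natural killer (NK) cells and is also found on some innate lymphoid cells. Each tissue has 2 samples, called 1 and 2 below, each on 1 Illumina BeadChip array, and sample 1 of every tissue lay on one slide and sample 2 on another. The labels do not say whether the 2 samples came from separate mice or pools, so the p-values reflect only how these samples vary, and that variation may be technical.

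Lymphocytes that are stimulated to divide or to secrete need more glucose, large neutral amino acids, glutamine, iron and zinc, and are known to raise carriers such as Slc2a1, Slc7a5 with its partner Slc3a2, and Slc1a5. Other solute carriers sit inside the cell. The Slc25 family links the mitochondrial matrix to the cytosol, the Slc35 family brings activated sugars into the Golgi and endoplasmic reticulum for glycosylation, and the Slc30 and Slc39 families move zinc out of and into the cytosol.

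Of the 46643 probes, each spleen array detected 18266 or 18530, each intestine array 16549 or 15279, and each skin array 15196 or 16477. The gene of NKp46, Ncr1, was detected on all 6. Markers of other cells were summed per array, and these sums differed between some tissues and overlapped between others. The summed signal of 9 erythroid markers was 11678 and 17580 in spleen, 1111 and 713 in intestine, with 1034.5 and 799 in skin, while Epb42, Rhag and Klf1 were detected on no array. For 13 macrophage and dendritic cell markers the sums were 255 and 293, 76.0 and 58.3, and 80.3 and 103, with Csf1r, Lyz1, Fcgr1, Marco and Cd14 detected on none. For 11 gut epithelium markers they were 65.0 and 95.6, 99.9 and 160.0, and 93.9 and 93.1. Epcam, Fabp1, Fabp2, Krt8, Krt19 and Cldn7 were detected on none, and Cdh1 gave 61.1 and 84.5 of the intestine sums. For 9 keratinocyte markers the sums were 31.8 and 36.6 in intestine and 48.3 and 26.3 in skin, lower on both spleen arrays. Krt5, Krt14, Krt1, Krt15 and Dsp were detected on none. Sfn was detected on all 6 (8.53 and 7.48 in spleen, 25.5 and 24.4 in intestine, with 26.2 and 14.7 in skin). For 7 fibroblast markers the sums reached at most 57.1, with Col1a1, Col1a2, Col3a1, Lum and Sparc detected on none and Dcn at 45.7 and -2.53 in intestine, 34.2 and 17.1 in skin and below 0 in spleen. The sums of 5 endothelial markers were 247 and 241, 572 and 742, and 194 and 236, mostly from Pecam1, with Cdh5, Tek and Emcn detected on none. Those of 6 mast cell markers were 803 and 695, 30.7 and 52.4, and 219 and 157, mostly from Cma1 in spleen and skin, with Mcpt4, Cpa3 and Fcer1a detected on none. For 8 NK markers the sums were 20531 and 21083 in spleen, 11920 and 13982 in intestine, with 20014.5 and 21337 in skin. In bulk samples such as these, fewer cells of a type and less RNA per cell cannot be told apart.

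Between intestine and spleen, the 6 members of the amino acid class and 2 monocarboxylate carriers that passed were higher in intestine. So were 4 of the 5 members of the sugar class that passed. The 7 nucleotide sugar carriers among the members that passed were lower, as were 6 of 8 ion carriers. Metal carriers (4 higher, 6 lower) and mitochondrial carriers (5 and 5) went both ways. Of the 136 members 97 were detected on all 4 arrays of these tissues, and 27 of them were higher in intestine, 29 lower and 41 not passing at an adjusted p of 0.05. Over all genes measured the same way, 23.4% were called higher and 27.3% lower. A difference of at least 2-fold was reached by 6 of the higher and 13 of the lower members, out of 97. Among all 9980 genes measured, 817 higher and 767 lower ones reached it. The median log2 difference of the 97 was 0.055, against 0.005 for all 9980 genes measured.

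All differences are on the log2(signal + 16) scale after quantile normalization, which understates the change of dim probes, and each stands with its standard error (±) from limma over 2 arrays per tissue. The scaling of the arrays moves the split between higher and lower. With median scaling 42 members were higher and 31 lower, and the median of all genes stood at 0.107. With the scaling of the deposited tables alone, 15 were higher and 45 lower and that median stood at -0.253. The 27 higher members kept their call with median scaling and the 29 lower ones under both. With the deposited scaling 15 of the 27 kept it.

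**Figure D1:**
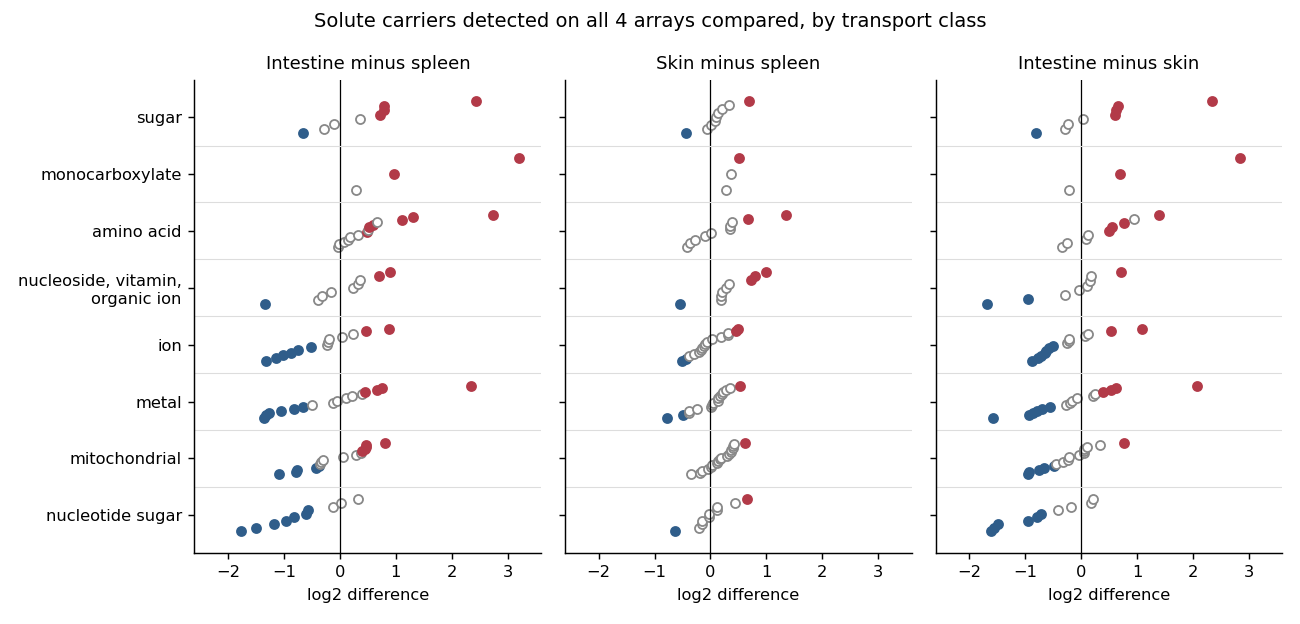
Each point is 1 solute carrier detected on all 4 arrays of the 2 tissues compared, placed by its log2 difference (x axis) in its transport class (rows), with the tissues compared above each panel. Filled red points were called higher and filled blue points lower in the tissue named first, and open points did not pass an adjusted p of 0.05. In the left panel the amino acid class has 6 filled points, all above 0, and the nucleotide sugar class 7, all below 0.

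Glucose enters lymphocytes mainly through facilitative carriers of the Slc2 family. Of the 8 members of the sugar class measured in both tissues, 4 were higher in intestine, 1 was lower and 3 did not pass. Over all genes measured in these tissues, 23.4% were higher and 27.3% lower. The sugar class was drawn by family, and its lower member is Slc5a6, a vitamin carrier of the Slc5 family. Slc2a6, a glucose carrier of lysosomal membranes, gave signals of 224 and 183 in spleen, 902.5 and 1040 in intestine, with 176 and 188 in skin. Both intestine arrays stood far above the other 4, which overlapped. Its level in intestine was 5.41-fold that in spleen (log2 difference 2.43 ± 0.16, adjusted p = 2.12e-06). Slc2a1, the widespread high-affinity glucose carrier, had signals of 318 and 310 in spleen, 475 and 440 in intestine, with 301 and 284 in skin, a smaller rise of 0.79 ± 0.13 (adjusted p = 0.000736). Slc2a8, an intracellular glucose carrier, was dim, at 10.99 and 12.8 in spleen against 22.8 and 26.2 in intestine, with 13.4 and 14.9 in skin, and rose by 0.72 ± 0.13. Slc5a3, which takes up myo-inositol with sodium, rose by 0.80 ± 0.13. Slc5a6, the sodium-dependent carrier of biotin and pantothenate, was lower (-0.67 ± 0.13, signals of 78.7 and 78.6 in spleen against 30.9 and 26.8). Its skin signals of 40.7 and 43.6 lay between.

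Slc2a3, the other high-affinity glucose carrier of lymphocytes, had another order. Its signals were 600 and 749 in spleen, 591 and 499.8 in intestine, with 979 and 1020 in skin. The skin arrays were highest, with no overlap, and the intestine arrays did not exceed those of spleen. Set side by side, Slc2a1 and Slc2a6 thus had their highest signals in intestine and Slc2a3 in skin.

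The monocarboxylate family Slc16 carries lactate, pyruvate, ketone bodies and, in the case of Slc16a10, aromatic amino acids. Slc16a10 showed the largest rise of all members, from signals of 8.01 and 6.41 in spleen to 166 and 192 in intestine, with 16.1 and 14.8 in skin. Its level was 9.25-fold higher in intestine (3.21 ± 0.13, adjusted p = 2.14e-07), and its other probe gave 1.95. Slc16a6, reported to export ketone bodies, rose by 0.96 ± 0.14 (146 and 117 in spleen, 190.0 and 213 in intestine), and its other probe by 1.72. The lactate exporter Slc16a3 was dim on all arrays, between 5.29 and 19.5, and did not pass (0.29 ± 0.14, adjusted p = 0.11). Slc16a1, the main lactate carrier of many cells, had no detected probe and was not among the members.

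**Figure D2:**
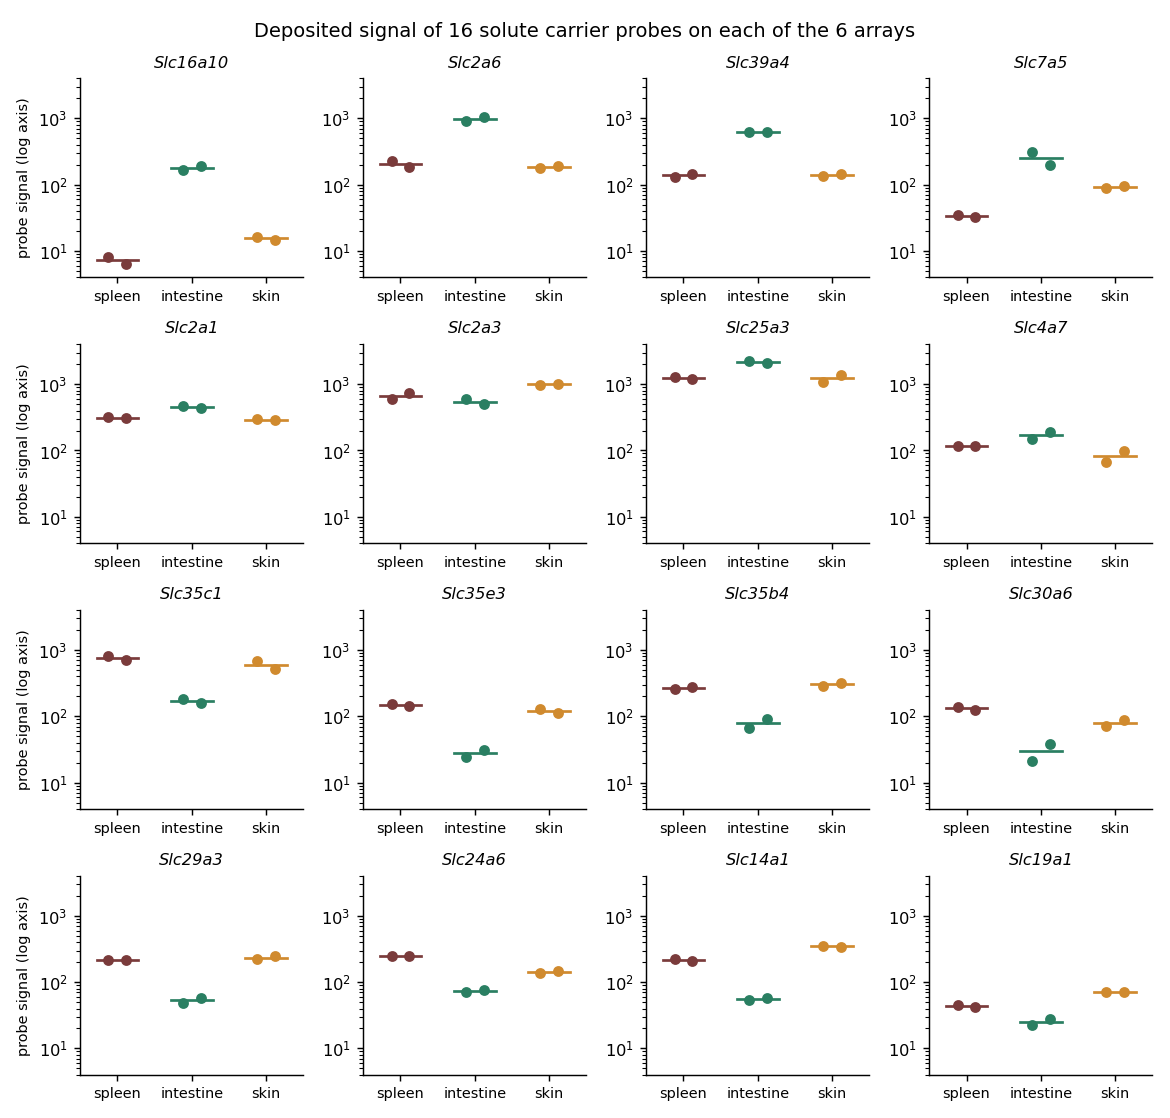
Deposited signal (y axis, log scale) of 16 solute carrier probes on each of the 6 arrays, with sample 1 on the left and sample 2 on the right of each tissue and a line at their mean. Slc16a10, Slc2a6, Slc39a4 and Slc7a5 stand highest on both intestine arrays, Slc35c1, Slc35e3, Slc35b4, Slc30a6, Slc29a3 and Slc24a6 lowest there, and Slc2a3, Slc14a1 and Slc19a1 highest in skin.

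Of the 14 members of the amino acid class measured in both tissues 6 were higher in intestine, 0 lower and 8 not passing by limma. Their median difference was 0.49. Calls were made for 42.9% of the class, against 50.6% of all genes measured (23.4% higher, 27.3% lower). The amino acid class too was drawn by family and holds members with other substrates, such as Slc43a3, a purine nucleobase carrier. With the deposited scaling the counts were 4 and 0, and with median scaling 9 and 0. Slc7a5, the light chain of the LAT1 exchanger for leucine and other large neutral amino acids, had signals of 34.5 and 32.7 in spleen, 310 and 195 in intestine, with 88.8 and 95.0 in skin. The 3 tissues did not overlap, and the intestine level was 6.64-fold that of spleen (2.73 ± 0.18, adjusted p = 2.21e-06). Slc3a2, the heavy chain CD98 that takes LAT1 to the surface, had signals of 6.07 and 5.29 in spleen, 50.05 and 20.3 in intestine, with 3.38 and 9.06 in skin, where it was not detected on both arrays. It rose by 1.303 ± 0.258 (adjusted p = 0.00231). Probes of different genes differ in binding, so the levels of the 2 chains cannot be set against each other. Slc36a4, a high-affinity carrier of proline and tryptophan, rose from 8.29 and 6.24 to 25.1 and 34.2 (1.11 ± 0.15), with 17.5 and 12.8 in skin.

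The carriers of glutamine had smaller differences. Slc1a5, a sodium-dependent exchanger of glutamine, passed at 0.52 ± 0.17 (adjusted p = 0.0251), although its deposited signals of 165 and 222 in spleen and 234 and 194 in intestine overlap. The call ended without spleen sample 1 or without intestine sample 1 (adjusted p up to 0.249), and with an offset of 4, the deposited scaling or no filter on detection (up to 0.48). Slc38a2, a sodium-coupled carrier of glutamine and alanine, had signals of 2226 and 2830 in spleen, 2824 and 3151 in intestine, with 1721 and 2204 in skin, and did not pass between intestine and spleen (0.18 ± 0.18, adjusted p = 0.424). Slc38a1, of the same family, was at 6.89 and 6.36 in spleen and 8.96 and 20.2 in intestine (0.49 ± 0.19, adjusted p = 0.0546). Slc7a6, a light chain for cationic and neutral amino acids, was at 0.14 ± 0.16. Slc6a6, the taurine carrier, gave -0.01 ± 0.13 on its brightest probe (399 and 402, 319 and 327, 326 and 311).

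Among the ion carriers 13 were measured in both tissues, 2 higher in intestine, 6 lower and 5 not passing. Of all genes measured, 23.4% were higher and 27.3% lower. With the deposited scaling 1 ion carrier was higher and 10 were lower. Slc12a7, a potassium-chloride cotransporter that releases these ions when cells shrink back from swelling, had signals of 83.7 and 93.8 in spleen, 28.1 and 33.2 in intestine, with 65.9 and 56.2 in skin (-0.75 ± 0.14). Its intestine arrays lay below the other 4. Slc12a2, the sodium-potassium-chloride cotransporter that brings these ions in, was at 0.04 ± 0.13 (adjusted p = 0.816).

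Among the sodium-proton exchangers, Slc9a9 of late endosomes fell by 1.02 ± 0.20, from 99.04 and 71.0 in spleen to 27.3 and 17.3 in intestine, and Slc9a7 of the Golgi by 0.51 ± 0.14. Slc24a6, which now has the symbol Slc8b1 and encodes the exchanger that lets calcium out of mitochondria for sodium, fell by 1.14 ± 0.13, from 251 and 244 to 71.8 and 77.2, with 136 and 146.5 in skin. The sodium-bicarbonate cotransporter Slc4a7, which brings bicarbonate in, was the larger of the 2 rises, at 118 and 118 in spleen, 151 and 192 in intestine, with 67.8 and 97.4 in skin (0.88 ± 0.17, adjusted p = 0.00204). The other was the phosphate carrier Slc20a1 (0.47 ± 0.13). Its call ended without spleen sample 1 or 2, with the deposited scaling and with the mean of its probes. Its other probes, both dimmer, gave -0.13 and 0.58.

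Metal carriers went both ways, as did all genes measured (23.4% higher in intestine, 27.3% lower). Of 16 measured in both tissues 4 were higher in intestine, 6 lower and 6 not passing, or 2 higher and 9 lower with the deposited scaling. Slc39a4, a zinc importer of the plasma membrane that enterocytes are known to need for zinc uptake, had signals of 132 and 145 in spleen, 612.5 and 628 in intestine, with 135 and 144 in skin. Its level was 5.08-fold higher in intestine (2.35 ± 0.13, adjusted p = 9.61e-07), while spleen and skin overlapped. The gut epithelium markers Epcam, Fabp1, Fabp2, Krt8, Krt19 and Cldn7 were detected on no array. Cdh1 of the same list was at 61.1 and 84.5 in intestine and at most 8.96 elsewhere. Lgals4 went the other way, at 67.5 and 82.2 in spleen, 29.1 and 45.1 in intestine, with 72.4 and 67.7 in skin. Krt18 was at 4.79 and 6.45, 8.38 and 14.4, and 14.05 and 7.79. Vil1 was at most 7.52 and Krt20 at most 11.6 on any array. The part of gut epithelium cells in the result was not tested. Slc39a7, which releases zinc from the endoplasmic reticulum and Golgi, rose by 0.75 ± 0.13 (50.9 and 56.7 in spleen, 72.7 and 69.2 in intestine), a call that the deposited scaling ends. The copper importer Slc31a1 rose by 0.67 ± 0.14, from 17.4 and 15.1 to 30.1 and 24.7.

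Zinc carriers of the secretory pathway were among the lower ones. Slc30a6, which forms a complex with Slc30a5 to load zinc into the Golgi, had 140 and 125 in spleen, 21.1 and 38.7 in intestine, with 72.2 and 87.0 in skin (-1.31 ± 0.19, adjusted p = 0.000339). Slc30a5 itself fell by 0.66 ± 0.13, from 344 and 319 to 158 and 152, with 211 and 221 in skin. Slc39a9 and Slc39a13, zinc carriers of the Golgi region, fell by 1.27 ± 0.14 and 0.81 ± 0.16. For these 4 genes both intestine arrays lay below the other 4. Slc30a7, another zinc carrier into the Golgi, was at 0.21 ± 0.13 (adjusted p = 0.182).

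Slc30a1, the zinc exporter of the plasma membrane, is known to be induced by zinc through the metal response element (MRE). On its brightest probe it fell by 1.35 ± 0.14, from 197 and 216 in spleen to 55.3 and 43.6 in intestine, with 91.8 and 92.5 in skin, but its other probe gave 0.36. Its promoter is shown because the MRE is its textbook control element and because Mt1, the metallothionein gene driven by the same element, was among the rises in intestine given below. The window runs from 250 bases before to 50 bases after the RefSeq start (GRCm38.p6, chr1:191906531-191906830, plus strand), with the MRE matches in capitals.
Slc30a1 promoter: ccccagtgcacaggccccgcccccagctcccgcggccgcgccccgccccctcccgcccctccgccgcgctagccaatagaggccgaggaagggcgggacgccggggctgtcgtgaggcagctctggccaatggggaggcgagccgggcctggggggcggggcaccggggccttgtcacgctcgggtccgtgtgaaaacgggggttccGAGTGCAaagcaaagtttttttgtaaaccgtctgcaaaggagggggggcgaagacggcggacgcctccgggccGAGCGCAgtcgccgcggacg
The letters TGCACNC or TGCGCNC, searched on both strands, were found 2 times there, both as the reverse complement, with leftmost bases at -43 and 30 from the start. Among the 146 promoters of the 104 members found in the RefSeq table, 33.6% held a match, against 25.7% of all 32851 promoters of 300 bases. A match is a description of the letters.

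The Slc25 carriers went both ways, as did all genes measured (23.4% higher in intestine, 27.3% lower). Of 16 measured in both tissues 5 were higher in intestine, 5 lower and 6 not passing, with 1 higher and 8 lower under the deposited scaling. Slc25a3, which brings in the phosphate for ATP synthesis, had signals of 1276 and 1216 in spleen, 2216 and 2092 in intestine, with 1085 and 1361 in skin (0.80 ± 0.14, adjusted p = 0.0013). Both intestine arrays stood above the other 4. Slc25a5, the ATP and ADP exchanger, was at 2379 and 2350, 3245 and 2682, and 3050 and 3038, and did not pass (0.29 ± 0.13, adjusted p = 0.0862). Slc25a28, the mitochondrial iron importer mitoferrin 2, passed at 0.47 ± 0.15, and the call ended without spleen sample 1 or 2 or without intestine sample 2 (adjusted p up to 0.167), and with an offset of 4, the deposited scaling or no filter on detection (up to 0.283).

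The largest fall among them was in Slc25a14, a member of the uncoupling protein branch, from 50.3 and 46.4 in spleen to 9.35 and 8.93 in intestine, with 26.9 and 40.0 in skin (-1.08 ± 0.16, adjusted p = 0.000376). Slc25a24 and Slc25a25 both exchange ATP-magnesium for phosphate under control of calcium. Slc25a24 fell by 0.76 ± 0.13, from 119 and 122 to 45.6 and 42.4, with 104.5 and 123 in skin. Slc25a25 was at 19.03 and 20.2 in spleen, 25.5 and 20.9 in intestine, with 22.7 and 25.7 in skin, with a difference of 0.40 ± 0.14 (adjusted p = 0.0376). That call ended without spleen sample 1 or 2 or without intestine sample 1 (adjusted p up to 0.202) and with 4 other alternatives. The 2 genes of this pair thus had differences of opposite sign.

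Of the 146 promoter windows of members, that of 1 Slc25a25 start is the only one with the cAMP response element (CRE, letters TGACGTCA, the same on both strands), 0.685% against 1.79% of all promoters. It is shown for that reason, on the minus strand of GRCm38.p6 at chr2:32424017-32424316, with the element in capitals starting 150 bases before the start.
Slc25a25 promoter: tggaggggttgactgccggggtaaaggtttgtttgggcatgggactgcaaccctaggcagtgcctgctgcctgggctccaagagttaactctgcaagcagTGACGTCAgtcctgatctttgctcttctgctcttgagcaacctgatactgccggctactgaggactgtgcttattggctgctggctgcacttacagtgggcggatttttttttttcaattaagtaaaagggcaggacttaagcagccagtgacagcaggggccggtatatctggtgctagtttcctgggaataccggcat
The 2 other windows of this gene hold no match. The composite element through which ATF4 acts on amino acid carriers (letters TGATGNAA, both strands) was found in 2.74% of the members' windows and 3.97% of all. The members' windows are those of every class. None was of Slc7a5, Slc1a5, Slc38a1 or Slc6a6, so these amino acid carriers were not searched.

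**Figure D3:**
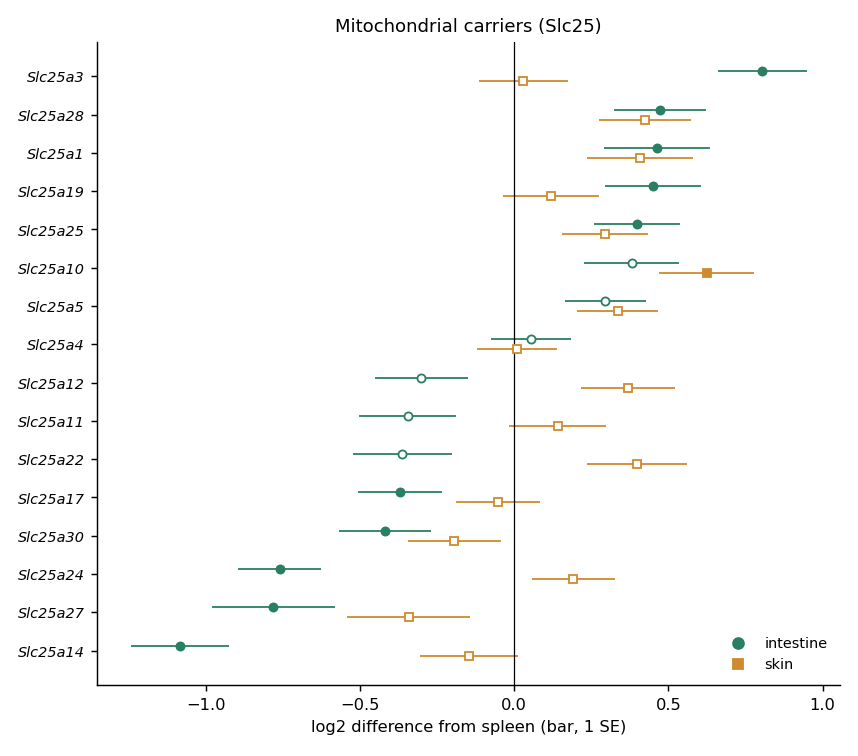
Log2 difference from spleen (x axis) of the Slc25 carriers detected on all arrays of spleen, intestine and skin, for intestine (green circles) and skin (orange squares), with bars of 1 SE and filled symbols for an adjusted p under 0.05. Intestine spans -1.08 (Slc25a14) to 0.80 (Slc25a3), and in skin only Slc25a10 (0.62) passed.

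The nucleotide sugar family was the class with the largest share of lower members. Of its 10 members measured in both tissues 0 were higher in intestine, 7 lower and 3 not passing by limma. Their median was -0.71. Of all genes measured, 23.4% were higher and 27.3% lower. Under median scaling 1 member was higher and 7 lower, and under the deposited scaling 0 and 9. Slc35 genes under older symbols fall outside the selection rule, and those measured went both ways. Slc35e1 (1.73 ± 0.15) and Slc35e2 (0.51 ± 0.16) were higher in intestine and Slc35d2 (-1.13 ± 0.14) lower. Slc35c1, which carries GDP-fucose into the Golgi for fucosylated glycans such as selectin ligands, had signals of 817 and 719 in spleen, 185 and 157 in intestine, with 687 and 512 in skin. Its level was 3.40-fold lower in intestine than in spleen (-1.76 ± 0.17, adjusted p = 2.5e-05). Slc35a1, the CMP-sialic acid carrier, had 207 and 220, 61.0 and 86.2, and 198 and 154 (-0.96 ± 0.18, other probe -0.52). For both, the intestine arrays lay below the other 4.

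Slc35b4, a carrier of UDP-xylose and UDP-N-acetylglucosamine, had 258 and 273.5 in spleen, 67.5 and 91.5 in intestine, with 290.5 and 324 in skin (-1.18 ± 0.16). Slc35e3, whose substrate is not established, had 151 and 145.5, 24.6 and 31.2, and 127 and 110.5 (-1.50 ± 0.14, adjusted p = 2.48e-05). Slc35a3, a UDP-N-acetylglucosamine carrier, fell by 0.82 ± 0.14 and was low in skin too, at 251 and 294 against 498 and 491 in spleen. The other lower members were Slc35a4 (-0.60 ± 0.14), which did not pass without spleen sample 2 (adjusted p = 0.0529), and the sulfate donor carrier Slc35b3 (-0.57 ± 0.18), which did not pass without spleen sample 1 or 2 or intestine sample 1, or with an offset of 4 (adjusted p up to 0.131). Slc35b1, a carrier of the endoplasmic reticulum, stood at 651 and 615, 714 and 701, and 638 and 599, and did not pass (0.33 ± 0.13, adjusted p = 0.0602).

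**Figure D4:**
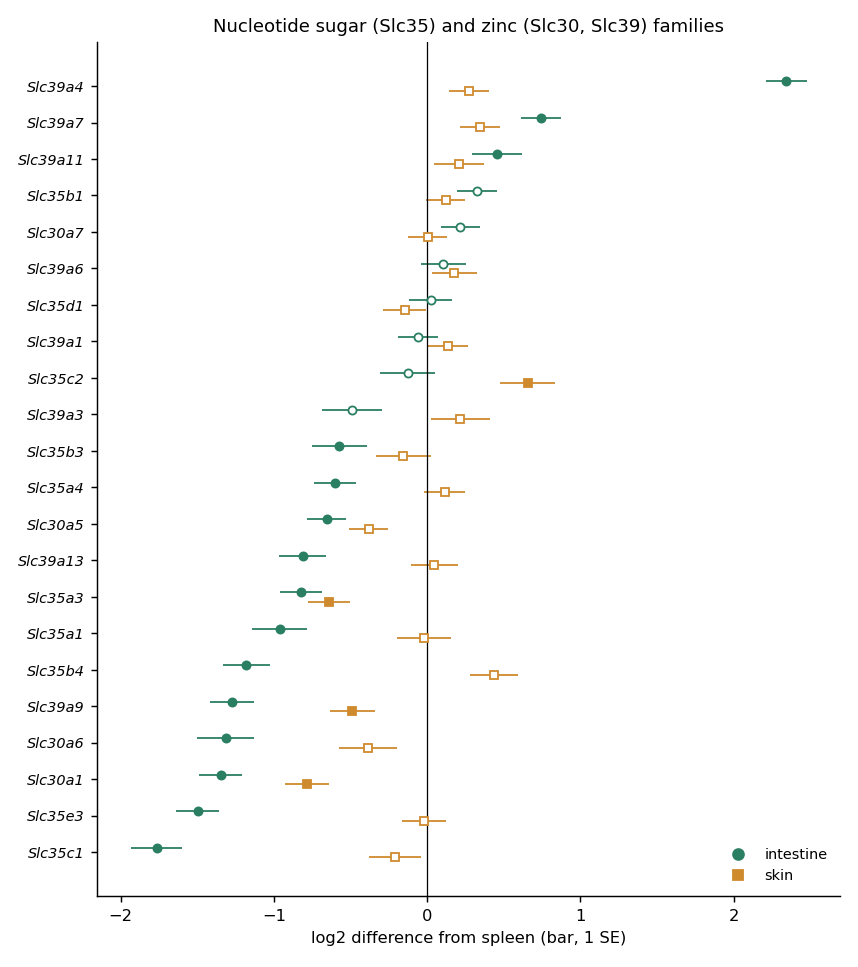
Log2 difference from spleen (x axis) of the nucleotide sugar carriers (Slc35) and zinc carriers (Slc30, Slc39) detected on all 6 arrays, for intestine (green circles) and skin (orange squares), with bars of 1 SE and filled symbols for an adjusted p under 0.05. Slc39a4 stands at 2.35 for intestine and Slc35c1 at -1.76, while the skin values lie between -0.79 (Slc30a1) and 0.66 (Slc35c2).

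Of 9 carriers of nucleosides, vitamins and organic ions measured in both tissues 2 were higher in intestine, 1 lower and 6 not passing. Calls were made for 33.3% of them, against 50.6% of all genes measured (23.4% higher, 27.3% lower). With the deposited scaling 0 of the 9 were higher and 4 lower. Slc29a3, the nucleoside carrier of lysosomes, had signals of 216 and 218.5 in spleen, 48.7 and 57.4 in intestine, with 220 and 247 in skin (-1.34 ± 0.14, adjusted p = 3.88e-05). Slc29a1, the nucleoside carrier of the plasma membrane, had 25.9 and 22.3, 39.5 and 32.03, and 61.6 and 46.8 (0.70 ± 0.16), so the 2 relatives moved in opposite directions on these probes. The second probe of Slc29a1 gave -0.11. The thiamine carrier Slc19a2 rose by 0.89 ± 0.19 (75.2 and 66.9 in spleen, 133 and 79.6 in intestine), and the deposited scaling ends that call and that of Slc29a1.

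Slc14a1, the urea carrier that red cells also express, stood lowest in intestine and highest in skin. Its signals were 227 and 208 in spleen, 52.9 and 57.7 in intestine, with 354 and 343 in skin, with no overlap between tissues. It fell by 1.29 ± 0.13 from spleen to intestine (adjusted p = 4.03e-05, other probes -1.25, -1.39 and -0.67). The erythroid sums were 11678 and 17580 in spleen, 1111 and 713 in intestine, with 1034.5 and 799 in skin, and the part of such cells in the result was not tested. The scaffold gene Slc9a3r1 rose by 0.67 ± 0.13 (392 and 423 in spleen, 574 and 533 in intestine).

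Between skin and spleen fewer and smaller differences passed. Of 98 members measured in both, 13 were higher in skin, 7 lower and 78 not passing, where 14.0% of all genes measured were higher and 10.1% lower. The median of the members was 0.13 and that of all 10173 genes 0.043. Only 1 member, a higher one, reached 2-fold, where 188 higher and 113 lower of the 10173 genes did. With median scaling 29 were higher and 7 lower, and with the deposited scaling 11 and 16, with the median of all genes at 0.108 and -0.119. The counts rest on each array. They were 4 higher and 1 lower without spleen sample 1, 4 and 0 without spleen sample 2, 5 and 1 without skin sample 1, and 5 and 3 without skin sample 2. Without intestine sample 1 or 2, whose spread enters the shared error, 21 were higher and 10 or 11 lower. The spleen arrays are those of the comparison with intestine, so the 2 comparisons are not independent.

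The calls of Slc7a5, Slc14a1 and Slc29a1 held without each array in turn, and each of the 15 others named here was lost without at least 1. Slc7a5 stood 2.54-fold higher in skin (1.34 ± 0.18, adjusted p = 0.00147), Slc14a1 1.89-fold (0.92 ± 0.13, other probes 0.34, 0.13 and 0.30) and Slc29a1 1.98-fold (0.99 ± 0.16, other probe 0.24). The folate carrier Slc19a1 had 44.96 and 41.6 in spleen, 22.2 and 27.9 in intestine, with 70.9 and 71.1 in skin (0.80 ± 0.13, adjusted p = 0.0607 without spleen sample 2). Slc2a3 was higher by 0.70 ± 0.15, with an adjusted p up to 0.143 without spleen sample 1, skin sample 1 or skin sample 2. Slc43a3, a purine nucleobase carrier, had 72.3 and 74.6 in spleen and 105 and 99.3 in skin (0.67 ± 0.14, adjusted p up to 0.101 without spleen sample 1 or 2 or skin sample 1). Slc29a4, a carrier of monoamines, was dim in spleen at 4.78 and 8.70 and stood at 19.9 and 24.9 in skin (0.72 ± 0.16, adjusted p up to 0.154 without spleen sample 1 or 2 or skin sample 2).

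Of the higher members, 5 more were lost without spleen sample 1, spleen sample 2, skin sample 1 or skin sample 2, each of the 4 in turn ending the call. They were the Golgi protein Slc35c2 (0.66), the dicarboxylate carrier Slc25a10 (0.62), Slc11a2 (0.52), the lactate exporter Slc16a3 (0.51) and the anion exchanger Slc4a2 (0.50), with adjusted p-values up to 0.237. The zinc exporter Slc30a1 led the lower ones (-0.79 ± 0.14, other probe -0.15), with an adjusted p of 0.0777 without spleen sample 2. Slc35a3 followed (-0.64 ± 0.14, adjusted p up to 0.0999 without spleen sample 1 or 2 or skin sample 1). Slc39a9 (-0.49), with an adjusted p up to 0.197, was lost without the same 3 arrays. The nucleoside carrier Slc28a2 (-0.55), Slc24a6 (-0.50) and Slc5a6 (-0.44) were lost without each of the 4 arrays, with adjusted p-values up to 0.273. An offset of 4 and no filter on detection each also ended the calls of Slc11a2, Slc35c2, Slc4a2, Slc39a9, Slc28a2, Slc24a6 and Slc5a6.

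Between intestine and skin 90 members were measured in both, 19 higher in intestine, 30 lower and 41 not passing, against 17.4% of all genes measured higher and 26.2% lower. With the deposited scaling 15 were higher and 38 lower, and the median of all genes stood at -0.181. The members' median was -0.21 and that of all 9788 genes -0.096. The largest rises were those of Slc16a10 (2.84 ± 0.13, other probe 2.16), Slc2a6 (2.33 ± 0.16), Slc39a4 (2.07 ± 0.13), Slc7a5 (1.39 ± 0.18) and Slc4a7 (1.08 ± 0.17), with a highest adjusted p of 0.000755. Slc2a1 was higher by 0.66 ± 0.13 and Slc25a3 by 0.78 ± 0.14. Slc38a2 passed at 0.56 ± 0.18, a call lost without intestine sample 2 or skin sample 1, with an offset of 4 and with no filter on detection (adjusted p up to 0.218).

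The largest fall was that of Slc14a1, 4.61-fold lower in intestine than in skin (-2.20 ± 0.13, adjusted p = 1.79e-06, other probes -1.59, -1.51 and -0.97). Slc29a3 (-1.68 ± 0.14), Slc35b4 (-1.62 ± 0.16), Slc11a2 (-1.57 ± 0.14, other probes 0.13 and 0.03), Slc35c1 (-1.56 ± 0.17) and Slc35e3 (-1.48 ± 0.14) followed. The 6 nucleotide sugar members that passed of 10 measured were all lower in intestine, where 17.4% of all genes measured were higher and 26.2% lower. Under older symbols, Slc35e1 (1.35 ± 0.15) and Slc35e2 (0.61 ± 0.16) were higher in intestine and Slc35d2 (-0.97 ± 0.14) lower. Slc19a1 was lower by -0.95 ± 0.13 and Slc2a3 by -0.80 ± 0.15. Of the Slc25 carriers, Slc25a24 (-0.95 ± 0.13), Slc25a14 (-0.94 ± 0.16) and the glutamate carrier Slc25a22 (-0.76 ± 0.16) were lower. Slc25a12, the aspartate and glutamate carrier, was at -0.67 ± 0.15, with an adjusted p of 0.0505 without skin sample 1.

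Several members have probes that disagree. Slc11a2, the importer of iron and other divalent metals known as DMT1, had 71.4 and 74.3 in spleen, 13.8 and 20.3 in intestine, with 89.5 and 90.5 in skin on its brightest probe (-1.05 ± 0.14 from spleen to intestine). Its 2 other probes, at 13.3 to 18.5 in spleen and 24.8 to 41.1 in intestine, gave 0.76 and 0.86. The mean of the 3 probes gave 0.19 (adjusted p = 0.3), so a direction for the gene between intestine and spleen depends on the probe. Between intestine and skin that mean gave -0.47 (adjusted p = 0.0321). Slc6a6 gave -0.01 on its brightest probe and 1.87 on the other, whose signals were 3.16 and 5.61 in spleen, 52.02 and 49.1 in intestine, with 6.41 and 7.44 in skin. With the mean of its probes Slc6a6 was higher by 0.93 (adjusted p = 0.000312). For Slc30a1 the dimmer probe, at 30.4 and 40.9 in spleen and 40.99 and 29.1 in intestine, did not show the fall of the brighter one. What part of each transcript a probe reads was not tested.

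**Figure D5:**
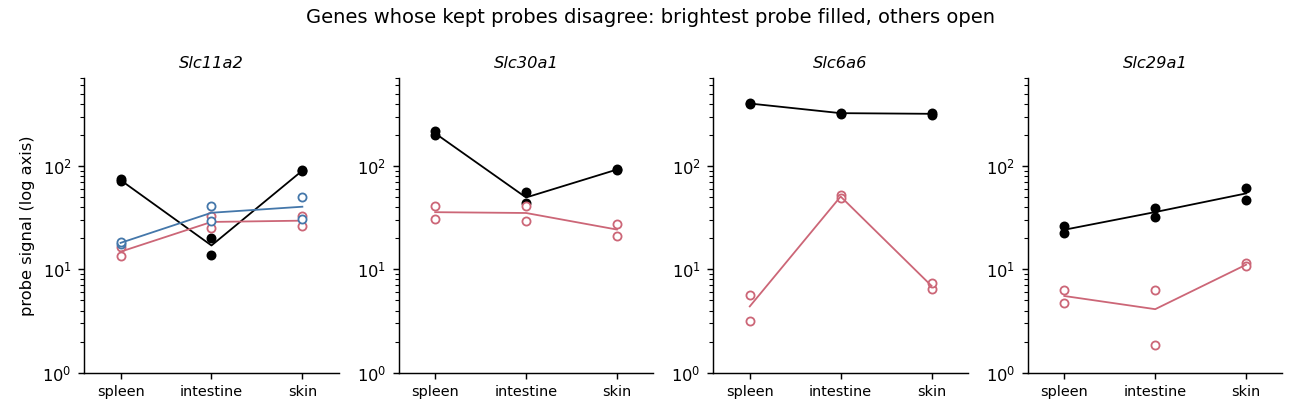
Deposited signal (y axis, log scale) of each kept probe of Slc11a2, Slc30a1, Slc6a6 and Slc29a1 in spleen, intestine and skin, with 2 arrays per tissue and lines through the tissue means. The brightest probe (filled, black) of Slc11a2 dips to 13.8 and 20.3 in intestine where its 2 other probes (open) stand above their spleen values.

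Detection in one tissue alone was a matter of the selection rule, so these members are described by their signals only. Of the 136 members 89 were detected on both arrays of all 3 tissues (65.4%, against 69.7% of all genes), 20 of spleen only (14.7% against 11.8%), 4 of intestine only (2.94% against 2.63%) and 5 of skin only (3.68% against 2.33%). Slc37a1, a glucose-6-phosphate carrier of the endoplasmic reticulum, was detected in spleen at 46.4 and 46.2 and in skin at 34 and 33.6 but not in intestine at 3.48 and 6.81, which makes it at least 2.26-fold lower in intestine than in spleen. A fold written as "at least" sets the mean of the tissue where the probe was detected against the lowest detected signal of the other arrays or the probe's own value if higher. In spleen only, the magnesium carrier Slc41a2 had 29.1 and 27.9 and the copper carrier Slc31a2 18.8 and 21.4, at least 1.67-fold and 1.42-fold above intestine. Slc27a3 had 15.6 and 15.97 in spleen, -0.73 and 0.72 in intestine, with 11.5 and 3.32 in skin. Not every member of the 20 was highest in spleen, since Slc7a2 had 4.72 and 5.83 there, 3.31 and 11.98 in intestine, with 6.86 and 18.4 in skin. Slc35a2 was at 7.97 and 12.1, 7.93 and 7.34, and 6.69 and 6.08. Macrophage markers, which were at 255 and 293 in spleen against 58.3 to 103 elsewhere, were high in the same tissue as Slc41a2 and Slc31a2, and their part was not tested.

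In intestine only, the creatine carrier Slc6a8 had 16.4 and 21.5 against 4.36 and 3.98 in spleen, at least 1.84-fold higher. The zinc carrier of vesicles Slc30a3 had 14.6 and 18.2 against -0.09 and 0.35, at least 1.70-fold, and Slc10a1 and Slc7a7 were the other members of that kind. In skin only, the citrate carrier Slc13a5 had 19.4 and 8.34, at least 1.35-fold above spleen, and Slc24a3, a calcium exchanger, had 11.7 and 11.4, at least 1.26-fold above spleen. Slc7a1, Slc45a1 and Slc16a11 were the other 3. The members nearest the threshold had a higher detection p, in their best tissue, of 0.00984 (Slc7a1), 0.00919 (Slc45a1) and 0.00851 (Slc19a3). The genes just outside it were Slc27a1 (0.0145), Slc37a2 (0.0147) and Slc39a14 (0.0151).

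Genes that work with the carriers were read from lists beside the members. For each list below, the shares over all genes measured were 23.4% higher in intestine than in spleen and 27.3% lower. Of 12 measured chaperones and regulators of glucose and lactate carriers 6 were higher in intestine than in spleen, 0 lower and 6 not passing by limma, with a median of 0.55. The largest rises were those of the hexokinase gene Hk2, at 26.7 and 24.01 in spleen, 1259 and 875 in intestine, with 39.9 and 52.5 in skin (4.90 ± 0.17), and of the arrestin-domain gene Arrdc4, at 66.7 and 82.4, 1204 and 1269, and 85.6 and 110 (4.06 ± 0.16). Emb, which encodes embigin, a chaperone of monocarboxylate carriers, rose from 398 and 434 to 1707 and 1857 (2.19 ± 0.14). It was singled out after its values were seen. Of 10 genes of the amino acid response and glutamine use 4 were higher and 1 lower, led by the stress factor genes Ddit3 (2.28 ± 0.14, 174 and 178 in spleen against 839 and 669) and Atf4 (1.58 ± 0.15, 446 and 518 against 1244 and 1371).

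Of 11 metal handling genes 5 were higher in intestine, 0 lower and 6 not passing. Mt1, a zinc-binding metallothionein, rose from 17.5 and 30.6 to 236 and 122 (2.54 ± 0.28), and Tfrc, the transferrin receptor, from 60.4 and 59.9 to 351 and 213 (2.29 ± 0.18). Of 8 genes of the sodium pump and volume control 1 was higher and 4 were lower. The pump's beta chains fell most, Atp1b1 from 3732 and 4084 to 731 and 676 (-2.51 ± 0.13) and Atp1b3 from 3048 and 2699 to 1029 and 1002 (-1.47 ± 0.13). The pump builds the sodium gradient on which sodium-coupled carriers run. Of 12 other genes of mitochondrial transport 1 was higher, 2 were lower and 9 did not pass, with Cpt2, an enzyme of fatty acid import, at -1.80 ± 0.18 and the import receptor Tomm70a at -0.72 ± 0.16.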

How the data were processed

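RNA of 6 sorted samples was amplified, labelled with biotin and hybridised to Illumina BeadChips, per the labels' protocols. The deposited intensity of each probe had been background-subtracted (30.7% to 32.7% of probes of an array are below 0) and scaled to a mean of 83.1 on each array, as its values show. Each probe also has a deposited detection p-value, per the file headers. BeadStudio 1.5.1.3 is named in the submitters' processing notes. Other steps are not given in the sources used here. Here log2(signal + 16) was computed and quantile normalization applied with limma (version 3.58.1, R version 4.3.3). The 18583 probes that passed the detection rule were kept, the brightest standing for each gene. Symbols were updated through RefSeq (GRCm38.p6), and promoter sequences are RefSeq's.

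The 3 comparisons were fitted with lmFit and eBayes on all 6 arrays, adjusted by Benjamini-Hochberg over 13449 genes at 0.05, and tested on simulated data. With a mean per tissue 3 residual degrees of freedom remain. Members are counted as higher or lower only where detected on all 4 arrays compared. Same-numbered samples share a slide by the array names, and their deviations correlated weakly, at 0.157, 0.211 and 0.114. The main fit leaves this pairing by slide out, so its standard errors and p-values are unpaired. Named were the largest called differences each way, the brightest and most changed members of each transport class, a fixed set, and the 2 largest differences per partner list. The text gives part of these, picked with their values in sight. Some members are not reported here. Members, classes and lists were chosen with earlier results of these data known. Alternatives were other offsets, scalings, filters, probe summaries, a variance trend, the slide as a block and leaving out each array.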

Additional observations from a re-analysis of the deposited data

How the results depend on the processing

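A set of 102 pairs of gene and comparison was followed through the alternatives. Of these 99 were called. Among the 16 alternatives run, 71 of the 99 were called in every one in which their gene was fitted (the rest in fewer). Detection on all 6 arrays left only 97 of the 99 in the fit, all of them still called. Lost in at least 1 were 10 for intestine against spleen, 15 for skin against spleen and 3 for intestine against skin. Other printed pairs were not followed this way, among them the calls of Slc9a7, Slc35e2 and Slc35d2 in intestine against spleen. With the replicate number (slide) as a block 31 members were higher and 31 lower in intestine than in spleen, 15 and 7 in skin than in spleen, and 21 and 31 in intestine than in skin, and the block ended none of the 99 calls. For intestine against spleen, median scaling gave 42 higher and the deposited scaling 15 higher and 45 lower. Leaving out each array gave 19 to 28 higher and 22 to 32 lower there, 13 to 19 and 24 to 32 for intestine against skin, and 4 to 21 and 0 to 11 for skin against spleen. The last comparison also moved with median scaling (29 higher), the deposited scaling (16 lower), an offset of 4 (2 lower) and no filter on detection (8 higher, 2 lower). Signals before scaling, an alternative chosen after seeing the data, kept all 99 calls. They differ from the deposited signals by a constant factor per array. Quantile normalization uses only the order of probes within an array, so this alternative could hardly end a call and is no check of them. Signs turned for Slc11a2 in intestine against spleen with the mean of its probes (0.19), and for Slc6a6 there with median scaling (0.0632), the mean of its probes (0.927) and without intestine replicate 1, with a range of -0.0544 to 0.0295 over the arrays left out. The cause was not tested. Dim probes limit what can be read, since fewer were detected on the intestine and skin arrays than on those of spleen.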

Other observations

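Besides the members, 46 detected genes that RefSeq now names as solute carriers stood on the arrays under older symbols and so fall outside the selection rule. Of the 33 measured in intestine and spleen 9 were higher in intestine, 7 lower and 17 not passing, with a median of 0.14. Over all genes measured in these tissues, 23.4% were higher and 27.3% lower. Slc35e1 had signals of 124 and 126 in spleen, 398 and 320 in intestine, with 125 and 153 in skin (1.73 ± 0.15). Slc35e2 also passed higher (0.51 ± 0.16), and Slc35d2 lower (-1.13 ± 0.14). Slc66a2 rose from 58.5 and 64.1 to 121 and 104 (1.16 ± 0.14). Of 16 measured carriers with no Slc symbol 3 were higher, 7 lower and 6 not passing. Mfsd2a, which takes up lysophospholipids that carry omega-3 fatty acids, rose from 16.1 and 10.8 to 153 and 77.2 (2.32 ± 0.23), with 28.9 and 25.97 in skin. Mtch1, a mitochondrial outer membrane protein, fell from 1205 and 1230 to 477 and 582 (-1.06 ± 0.15).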
